A study of Mus musculus with 6 samples.

Results

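Actins are the proteins of the microfilaments, and the genes that make them and the small contractile proteins bound to them were followed in mouse embryonic fibroblasts (MEFs) through 24 hr of TNFα. Taken by symbol from the deposited RefSeq table were the actins Acta2, Actb, Actg1 and Actg2, the calponin family genes Tagln, Cnn1 and Cnn2, the myosin light chain gene Myl9, and the tropomyosin genes Tpm1 and Tpm2. These were 10 of 21837 gene symbols. Each had 1 row except Tpm1, with 10 rows, of which the row with the highest mean was used. The cells were primary WT MEFs of the background C57BL/6x 129, from littermate embryos of 13.5 days, passaged 4 times. They were left untreated or given 20 ng/ml of TNFα, a cytokine that activates the transcription factor NF-κB, for 1.5, 6 or 24 hr. Poly-A RNA was sequenced from 1 library per time with a directional paired-end protocol, and the histone mark H3K4me3 was mapped before treatment in 1 ChIP library set against 1 input library. A MEF culture is made from whole tissue of the embryo and holds a mixture of mesenchymal cells, and the number of embryos behind a library is not stated in the labels.

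Fibroblasts build actin filaments from 2 cytoplasmic isoforms, beta (Actb) and gamma (Actg1), which differ by a few residues at the amino terminus. When fibroblasts turn into myofibroblasts, the contractile cells of wounds and scars, they add smooth muscle alpha-actin (Acta2) to their stress fibres, together with SM22 alpha (Tagln), calponins, tropomyosins and the regulatory light chain of myosin (Myl9). Many of these genes are known targets of serum response factor (SRF), which binds a short element named the CArG box and is coactivated by myocardin-related factors that sense free actin. Actb is also a customary reference for RT-qPCR, and actin served as the reference in the RT-qPCR of the study.

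CArG boxes were searched on both strands in the RefSeq promoter table (GRCm38.p6, 250 bases before and 50 after each start), which held an entry for 7 of the 10 genes (Acta2, Actg1, Cnn1, Cnn2, Myl9, Tpm1 and Tpm2). An exact match was found in Actg1, Cnn2 and Myl9, 3 of 7, and in 1.63% of 32851 promoters of the same length. A version with at most 1 mismatch in the A and T core, chosen after the data were seen, was found in 9.98% of promoters and in 4 of the 7, with Acta2 added. The 250 bases before the start of these 4 genes are shown because they carry the matches, which are in capitals. They lie at chr19:34255374-34255623 on the minus strand (Acta2), chr11:120348496-120348745 on the minus strand (Actg1), chr10:79988350-79988599 on the plus strand (Cnn2) and chr2:156775214-156775463 on the plus strand (Myl9).
Acta2: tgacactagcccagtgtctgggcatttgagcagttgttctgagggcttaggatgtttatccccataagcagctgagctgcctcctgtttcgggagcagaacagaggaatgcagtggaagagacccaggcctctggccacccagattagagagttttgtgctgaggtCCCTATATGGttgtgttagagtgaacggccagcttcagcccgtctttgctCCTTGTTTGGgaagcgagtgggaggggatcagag
Actg1: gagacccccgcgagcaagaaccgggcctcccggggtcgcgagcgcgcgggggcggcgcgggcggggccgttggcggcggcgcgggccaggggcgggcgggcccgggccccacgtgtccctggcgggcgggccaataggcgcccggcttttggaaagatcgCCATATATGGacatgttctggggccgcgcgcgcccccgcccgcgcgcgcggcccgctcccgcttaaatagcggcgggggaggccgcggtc
Cnn2: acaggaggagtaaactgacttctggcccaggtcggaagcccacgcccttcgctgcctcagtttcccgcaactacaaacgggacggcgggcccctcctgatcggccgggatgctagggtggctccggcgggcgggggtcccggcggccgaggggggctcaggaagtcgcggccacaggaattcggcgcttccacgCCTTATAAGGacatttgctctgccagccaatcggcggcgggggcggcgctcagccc
Myl9: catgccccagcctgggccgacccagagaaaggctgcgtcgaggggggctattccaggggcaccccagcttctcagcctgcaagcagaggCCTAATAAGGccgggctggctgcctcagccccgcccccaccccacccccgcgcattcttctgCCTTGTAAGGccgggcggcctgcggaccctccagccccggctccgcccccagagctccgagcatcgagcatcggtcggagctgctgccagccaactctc

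The box of Actg1, CCATATATGG, began 90 bases before the start, that of Cnn2, CCTTATAAGG, 56 bases, and that of Myl9, CCTAATAAGG, 161 bases. With the mismatch, Acta2 had CCCTATATGG from 84 bases and CCTTGTTTGG from 34 bases before the start, and Myl9 had a further CCTTGTAAGG from 99 bases. The letters TATAAA were in none of the 7 promoters and in 13.6% of all, and an NF-κB site was in 1 of 7, GGGGCACCCC in Myl9 from 195 bases before its start, and in 8.46% of all. No match overlapped a match to another motif. These matches describe the sequence and do not show that a factor was bound.

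The table gives RPKM values on a scale of its own, in 2 columns per library named R1 and R2, and the value of a library was their mean. There was no replicate, so no test was possible, and a gene was counted as changed when it was at least 2-fold from untreated. All 3 comparisons share the untreated library. The table does not give the depth in reads, for which the paper states a range of mapped sequences per sample. The libraries also differed as a whole. The summed value of all rows over that of the untreated library was 1.19 after 1.5 hr, 0.548 after 6 hr and 0.956 after 24 hr, and the median log2 ratio of the 6251 genes with a mean of at least 100 units was 0.43, -0.74 and 0.09. The ratios of the actins and contractile genes to untreated are therefore given mainly as deposited and relative to this median gene. For these genes a centring within bins of GC content was also made, and its values are given where it moves a call. The reference genes, the lists of other genes and the cell markers are given mainly relative to the median gene. GC centring was not made for them, so whether it would move their calls was not tested. The treatment was visible in Nfkbia (IκBα), at 319, 7211, 2655 and 5772 units at 0, 1.5, 6 and 24 hr, and in the chemokine gene Ccl2, at 187, 18120.3, 4967 and 13491 units.

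In the untreated library Actb had the 4th highest value of all genes, at 114510.1 units, and Acta2 the 29th, at 28422 units. Below them came Myl9 at 16892, Actg1 at 11084, Tagln at 10299.5, Tpm1 at 8002, Cnn2 at 5759, Tpm2 at 5646, Actg2 at 2903 and Cnn1 at 731 units. These levels are per length of transcript, so they can be compared between genes. The columns R1 and R2 of Actg1 and Tagln overlapped, as did those of Cnn2 and Tpm2, so these neighbours were not apart by more than the columns of 1 library. The 10 genes held 2.83%, 3.27%, 2.57% and 2.92% of the summed value at 0, 1.5, 6 and 24 hr.

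**Figure D1:**
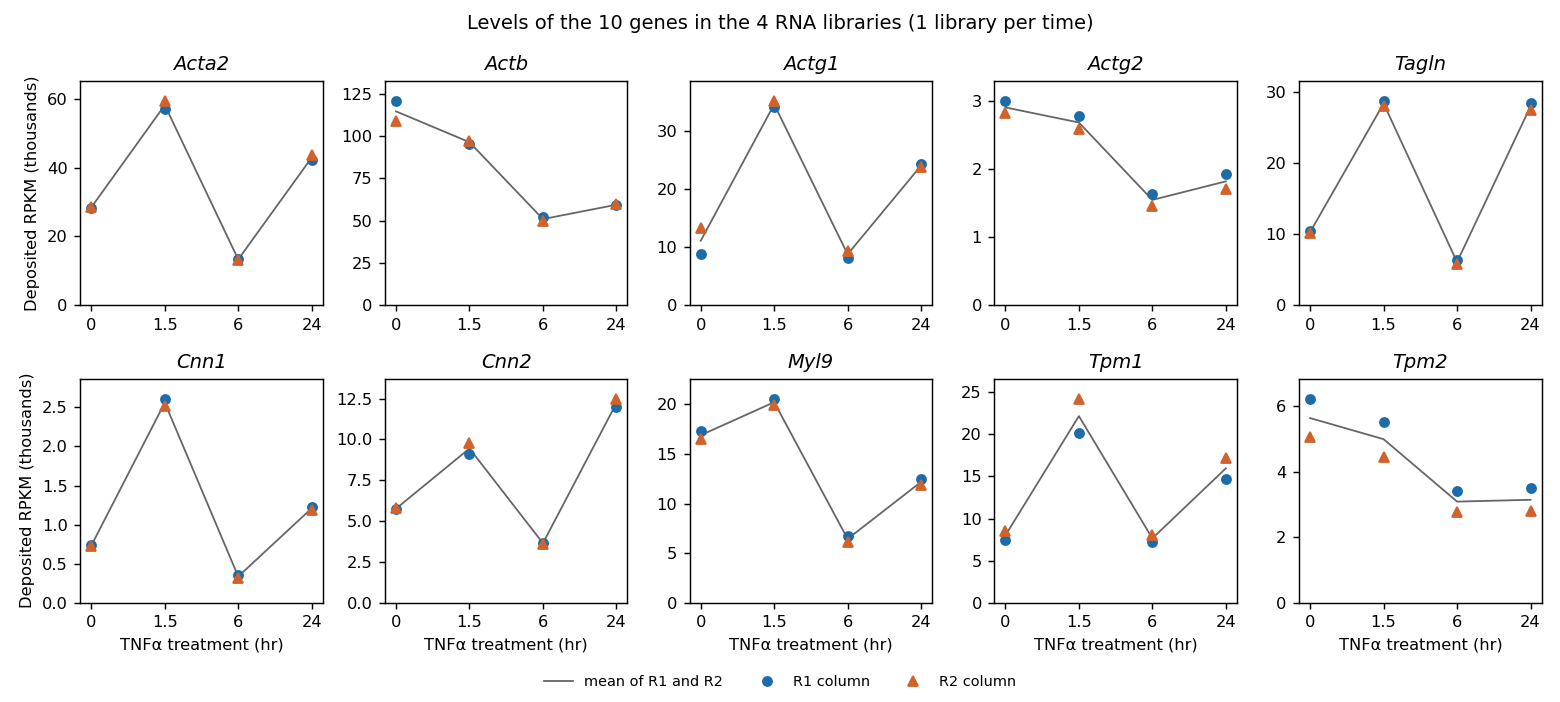
Levels of the 10 genes in the 4 RNA libraries, in deposited RPKM units against hours of TNFα, with the R1 and R2 columns as points and their mean as a line. Acta2, Actg1, Tagln, Cnn1 and Tpm1 stood at least 2-fold above untreated at 1.5 hr, every gene was below its 1.5 hr level at 6 hr, and Actb, Actg2 and Tpm2 had their highest value in the untreated library.

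The 10 genes separated into those with more RNA at both 1.5 and 24 hr and those without. Acta2, Actg1, Tagln, Cnn1, Cnn2 and Tpm1 were above untreated at both times, as deposited and relative to the median gene. After centring within GC bins Acta2 stood at log2 ratios of 0.10 and 0.00, so its place in this group depended on the scale. Myl9 stood at 0.42 and -0.02 on that scale. Actb, Actg2 and Tpm2 were below untreated at both times on both scales, and Myl9 was above untreated at 1.5 hr as deposited but not relative to the median gene. The cytoplasmic actins, which cells use together, were in different groups, as were the smooth muscle actins and the tropomyosins. The level of Actg1 is uncertain, because most of its sequence also occurs elsewhere in the genome. In RNA from a whole culture, fewer cells of a type and less RNA per cell cannot be told apart.

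Smooth muscle alpha-actin, Acta2 (NM_007392, mm9 chr19:34315580-34329826), had 28422 units untreated and 58129.6, 13284 and 42872 units after 1.5, 6 and 24 hr. It was the 9th highest of all genes at 1.5 hr and again at 24 hr. The level was 2.05-fold higher after 1.5 hr (log2 1.03), 2.14-fold lower after 6 hr (log2 -1.10) and 1.51-fold higher after 24 hr (log2 0.59). These log2 ratios were 0.60, -0.36 and 0.50 relative to the median gene, none of them 2-fold. Acta2 has a low GC content for this set, 48.96%, against a median of 52.97% over all genes, and with centring within GC bins its log2 ratios were 0.10 at 1.5 hr and 0.00 at 24 hr. On that scale Acta2 stood within 0.10 of transcripts of similar GC content at both times, and the call at 1.5 hr was lost.

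Beta-actin, Actb (NM_007393, mm9 chr5:143664794-143668433), had 114510.1 units untreated and 96286, 50847 and 59333 units after 1.5, 6 and 24 hr. The untreated library had the highest of these values, and the 24 hr value stayed below the 1.5 hr value. As deposited it was 2.25-fold lower at 6 hr and 1.93-fold lower at 24 hr. Against the median gene the log2 ratios were -0.68, -0.44 and -1.04, so that the 24 hr value passed the 2-fold threshold and the 6 hr value did not. Its share of the summed value of a library was 1.59% untreated and 1.13%, 1.29% and 0.861% after 1.5, 6 and 24 hr. After centring within GC bins the log2 ratio at 24 hr was -1.23.

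Gamma-actin, Actg1 (NM_009609, mm9 chr11:120207004-120209856), had 11084 units untreated and 34579, 8759.6 and 24042 units after 1.5, 6 and 24 hr. It was 3.12-fold higher at 1.5 hr and 2.17-fold higher at 24 hr, with log2 ratios of 1.64 and 1.12 as deposited and 1.21 and 1.02 relative to the median gene. At 6 hr the log2 ratio was -0.34 as deposited and 0.40 relative to the median gene. Its R1 and R2 columns were the furthest apart of the 10 genes, 8854 and 13314 units in the untreated library, and the log2 ratio at 24 hr was 1.45 from R1 alone and 0.84 from R2 alone. Of the 1922 stretches of 31 bases in the Actg1 transcript, 97.6% also occur elsewhere in the mm9 genome, against 39.8% for Actb and between 0 and 5.23% for the other 8 genes. How the authors counted reads that fit several places is not given in the sources used here, so the level of Actg1 is uncertain. Actb and Actg1 share 106 of these stretches, 5.61% of those of Actb and 5.52% of those of Actg1.

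Smooth muscle gamma-actin, Actg2 (NM_009610, mm9 chr6:83462899-83486259), had 2903 units untreated and 2681, 1545 and 1817 units after 1.5, 6 and 24 hr. It had the lowest level of the 4 actins in every library. None of its ratios reached 2-fold, the lowest being a log2 ratio of -0.91 at 6 hr as deposited, -0.18 relative to the median gene. At 24 hr its log2 ratio was -0.68 as deposited and -0.77 relative to the median gene, opposite in direction to Acta2.

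Transgelin or SM22 alpha, Tagln (NM_011526, mm9 chr9:45737711-45744141), which binds actin filaments and is used as an early marker of smooth muscle, had 10299.5 units untreated and 28444, 6076 and 28035 units after 1.5, 6 and 24 hr. The 1.5 hr and 24 hr values differed from each other by 0.02 on the log2 scale, and the 6 hr value was the lowest of the 4. The level was 2.76-fold higher at 1.5 hr and 2.72-fold higher at 24 hr. Relative to the median gene the log2 ratios were 1.04, -0.03 and 1.35, and the 24 hr ratio was higher than that of 92.8% of the 6251 genes. Both higher values stayed at 2-fold or above after GC centring, with log2 ratios of 1.00 and 1.34. No 31-base stretch of Tagln occurs elsewhere in the genome.

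Calponin 1, Cnn1 (NM_009922, mm9 chr9:21903725-21914074), the calponin of differentiated smooth muscle, had 731 units untreated and 2560.3, 335.5 and 1209 units after 1.5, 6 and 24 hr. Its 3.50-fold higher level at 1.5 hr was the largest ratio among the 10 genes, and it was 2.18-fold lower at 6 hr. The log2 ratios relative to the median gene were 1.38, -0.39 and 0.63. Calponin 2, Cnn2 (NM_007725, mm9 chr10:79451329-79458807), a calponin of nonmuscle as well as muscle cells, had 5759 units untreated and 9444, 3643 and 12213 units after 1.5, 6 and 24 hr. Cnn2 had its highest value at 24 hr, 2.12-fold over untreated as deposited and 1.99-fold relative to the median gene, whereas Cnn1 had its highest at 1.5 hr. The step from 1.5 to 24 hr was -1.08 on the log2 scale for Cnn1 and 0.37 for Cnn2.

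The regulatory light chain of myosin in smooth muscle and nonmuscle cells, Myl9 (NM_172118, mm9 chr2:156601156-156607394), had 16892 units untreated and 20223, 6434 and 12187 units after 1.5, 6 and 24 hr. At 6 hr it was 2.63-fold lower as deposited, the lowest ratio among the 10 genes, and its log2 ratio of -0.66 relative to the median gene was above that of 11.6% of all genes. At 24 hr its log2 ratio was -0.47 as deposited and -0.57 relative to the median gene. Myl9 has the highest GC content of the set, 56.65%, and its log2 ratios after GC centring were 0.42 at 1.5 hr and -0.02 at 24 hr. Its direction at 1.5 hr therefore depended on the scaling, from 0.26 as deposited to -0.17 relative to the median gene.

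Tropomyosins lie along actin filaments and regulate the access of myosin. Tpm1 (NM_024427, mm9 chr9:66870397-66897213) had 8002 units untreated and 22173, 7642 and 15959 units after 1.5, 6 and 24 hr. It was 2.77-fold higher at 1.5 hr and 1.99-fold higher at 24 hr, just under the threshold. The log2 ratios relative to the median gene were 1.04, 0.67 and 0.90, and the 6 hr ratio, -0.07 as deposited, was higher than that of 84.9% of all genes. After GC centring the 1.5 hr ratio was 0.71 and lost the call. All 10 transcript rows of Tpm1 were at least 2-fold higher at 1.5 hr, with log2 ratios from 1.37 to 1.60, and none at 24 hr, with log2 ratios from 0.79 to 1.00. These rows share exons, so they are not separate measurements. Tpm2 (NM_009416, mm9 chr4:43527583-43536637) had 5646 units untreated and 5000.4, 3092 and 3147 units after 1.5, 6 and 24 hr. Its 24 hr value was 1.79-fold lower than untreated, with a log2 ratio of -0.84 as deposited and -0.94 relative to the median gene, and no ratio of Tpm2 reached 2-fold.

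As deposited, 5 of the 10 genes (Acta2, Actg1, Tagln, Cnn1 and Tpm1) were at least 2-fold higher at 1.5 hr, where 29.8% of the 6251 genes were, and none was at least 2-fold lower, where 8.51% of genes were. At 6 hr none was 2-fold higher (1.87% of genes) and 4 were 2-fold lower, Acta2, Actb, Cnn1 and Myl9 (31.4% of genes). At 24 hr 3 were 2-fold higher, Actg1, Tagln and Cnn2 (17% of genes), and none was 2-fold lower (13.4% of genes). At 1 or more times 8 of 10 were changed, against 68.7% of all genes. The counts at 6 hr and over all times were close to these shares of all genes.

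When set against the median gene, 4 were 2-fold higher at 1.5 hr, Actg1, Tagln, Cnn1 and Tpm1 (16.3% of genes), and none was 2-fold lower (17.6%). At 6 hr no gene of the 10 was 2-fold higher (7.47% of genes) or lower (3.52%). At 24 hr Actg1 and Tagln were 2-fold higher (14.7% of genes) and Actb was 2-fold lower (15.7%). Changed at 1 or more times were 5 of 10, against 41.6% of genes. The median log2 ratio of the 10 genes as deposited was 0.87, -0.89 and 0.66 after 1.5, 6 and 24 hr, beside 0.43, -0.74 and 0.09 over all genes. All 10 were lower at 6 hr than at both 1.5 and 24 hr as deposited, which held for 82.3% of all genes. On the scale of the median gene 7 were, without Actb, Actg2 and Tpm2, and 51.4% of all genes.

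**Figure D2:**
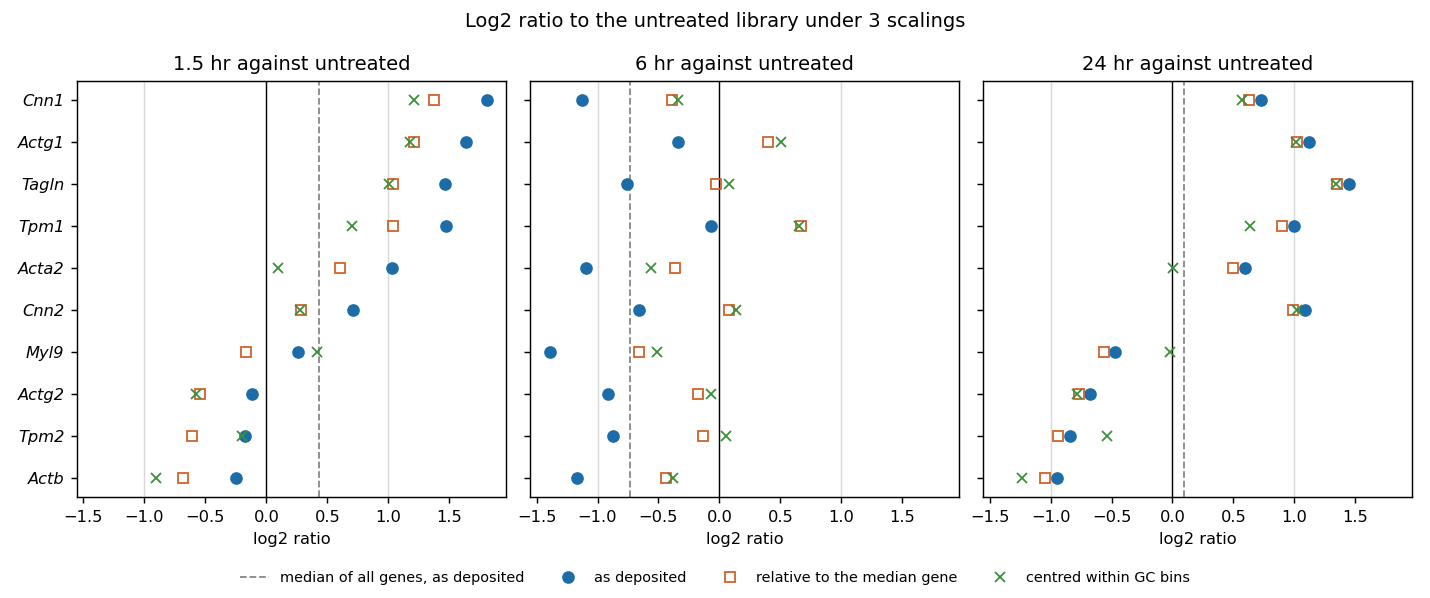
Log2 ratio of each gene to the untreated library at 1.5, 6 and 24 hr, as deposited (filled circles), relative to the median gene (open squares) and centred within GC bins (crosses), with the median of all genes as a dashed line and grey lines at 2-fold. Tagln and Actg1 were at 2-fold or above at 1.5 and 24 hr on all 3 scales, Actb was below 0 at every time on all 3, and at 6 hr the median gene itself lay at -0.74.

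Ratios of the RPKM of 2 genes within the same library do not depend on a factor common to all genes of a library, and they were set out for related pairs. Centring within GC bins moves genes by different amounts, and its effect, examined after the data were seen, is given beside the ratios it moved most. Actb exceeded Actg1 10.3-fold in the untreated library and 2.78-fold, 5.81-fold and 2.47-fold after 1.5, 6 and 24 hr. These ratios are uncertain, since 97.6% of the 31-base stretches of Actg1 and 39.8% of those of Actb also occur elsewhere in the genome. At 24 hr the ratio was 4.19-fold lower, with Actb below and Actg1 above untreated on all 3 scales (4.74-fold lower after GC centring), and the untreated ratio was 13.6 from R1 and 8.16 from R2, so both columns were above every treated value. The ratio of Tpm1 to Tpm2 was 1.42, 4.43, 2.47 and 5.07 at 0, 1.5, 6 and 24 hr, 3.58-fold higher at 24 hr than untreated. After GC centring this ratio was 1.88-fold higher than untreated at 1.5 hr and 2.25-fold higher at 24 hr. The untreated columns of this ratio, 1.20 and 1.69, lay below the columns of every treated library as deposited.

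The ratio of Acta2 to Actb was 0.248 untreated and 0.604, 0.261 and 0.723 after 1.5, 6 and 24 hr. That of Tagln to Actb was 0.0899, 0.295, 0.1195 and 0.473, a 5.25-fold difference between 24 hr and untreated. Both ratios were high at 1.5 and 24 hr and within 1.33-fold of untreated at 6 hr. After GC centring the differences from untreated at 24 hr were 2.35-fold for Acta2 to Actb and 5.95-fold for Tagln to Actb. Among the smooth muscle actins, Acta2 exceeded Actg2 9.79-fold untreated and 21.7-fold, 8.60-fold and 23.6-fold after 1.5, 6 and 24 hr, and the difference between 24 hr and untreated, 2.41-fold as deposited, was 1.72-fold after GC centring. The ratio of Cnn1 to Cnn2 was 0.127, 0.271, 0.0921 and 0.0990, and 1.5 hr was the only treated time at which it was above untreated. The ratio of Myl9 to Acta2 was 0.594 untreated and 0.348, 0.484 and 0.284 in the treated libraries. This lower ratio was not seen after GC centring, where the log2 change from untreated was 0.32, 0.05 and -0.02 at 1.5, 6 and 24 hr.

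**Figure D3:**
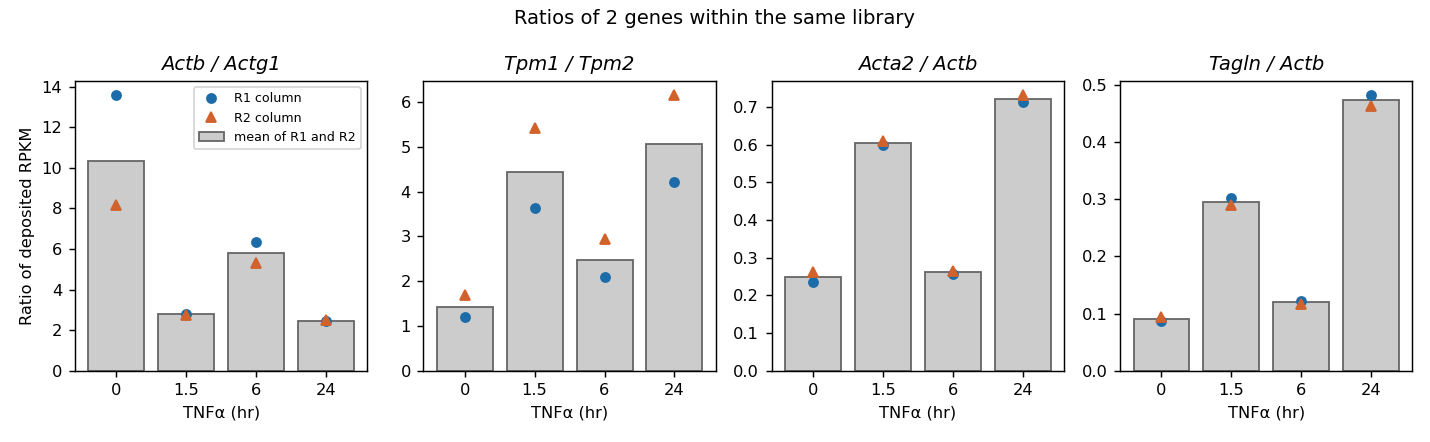
Ratio of the deposited RPKM of 2 genes within each library against hours of TNFα, with the R1 and R2 columns as points and the ratio of the means as bars. Actb over Actg1 was highest in the untreated library at 10.3, Tpm1 over Tpm2 was lowest there at 1.42, and Acta2 and Tagln over Actb were high at 1.5 and 24 hr. The level of Actg1 is uncertain, because most of its sequence also occurs elsewhere in the genome.

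Since Actb is used to normalise RT-qPCR, it was set beside 14 other customary reference genes above the filter. At 24 hr all 14 had a higher log2 ratio to untreated than Actb, at 1.5 hr 13 and at 6 hr 11 of them. In ratio to untreated, the median reference gene stood 2.19-fold above Actb after 1.5 hr, 1.20-fold after 6 hr and 2.97-fold after 24 hr. Relative to the median of all genes, the log2 ratios of the median reference gene were 0.45, -0.18 and 0.53. Those of Actb were -0.68, -0.44 and -1.04, so both sides entered these differences. The methods of the study give 6 hr of treatment for RT-qPCR, and a figure legend gives 1.5 hr. This comparison was made without GC centring, and 39.8% of the 31-base stretches of Actb occur elsewhere in the genome. The other reference genes were not checked for such stretches. The ratio of Actb to Ppia (cyclophilin A) was 15.1, 3.98, 7.82 and 2.61 at 0, 1.5, 6 and 24 hr, and the ratio of Actb to Tbp (the TATA-binding protein) was 1310.3, 524, 1008 and 433. The ratio of Actb to Gapdh, a glycolytic enzyme, was 17.7, 9.44, 18.4 and 4.81, so at 6 hr it was not below untreated. At 24 hr this ratio was 3.68 from R1 and 6.94 from R2. The reference genes were not uniform themselves, with log2 ratios at 24 hr relative to the median gene from -0.71 for Rpl13a (a ribosomal protein) and -0.65 for Polr2a (the large subunit of RNA polymerase II) to 2.09 for B2m (a subunit of MHC class I) and 2.25 for Hprt (a purine salvage enzyme). Of the 14, 3 were at least 2-fold higher at 24 hr on that scale (14.7% of all genes) and none lower (15.7%). Hprt had a low level, 43.0 units in the untreated library.

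Other genes of the actin cytoskeleton were counted in lists by role, on the scale relative to the median gene, where 16.3% of all genes were 2-fold higher and 17.6% lower at 1.5 hr, and 14.7% higher and 15.7% lower at 24 hr. The regulators of actin monomers and filaments had a median of 1.07 at 24 hr, with 8 of 14 at least 2-fold higher (14.7% of all genes) and none lower (15.7%). Of the 8, Cfl1 and Actr2 stood near the threshold, at log2 ratios of 1.04 and 1.095. At 1.5 hr 7 of the 14 were higher and 1 lower, with a median of 0.92. The counts of these lists were made without GC centring. Their genes were not checked for sequence that occurs elsewhere in the genome. Pfn1 (profilin 1), which feeds monomers to growing filaments, was at 4909 units untreated and 20730.2, 4629 and 15982 after 1.5, 6 and 24 hr. Cap1, which recycles monomers, had a log2 ratio of 1.51 at 24 hr. The lowest of the list were Capg (a capping protein) at -0.65 and Tmsb10 (thymosin beta 10, which binds monomers) at -0.40.

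The list of smooth muscle contractile genes, which also holds genes of nonmuscle cells, divided in both directions. Of its 12 genes above the filter, 3 were at least 2-fold higher (16.3% of all genes at 1.5 hr, 14.7% at 24 hr) and 4 lower (17.6% and 15.7%) at both times, with medians of 0.09 and 0.14. Highest at 24 hr were Tpm4, a tropomyosin of nonmuscle cells, at a log2 ratio of 1.57, and Csrp1, a LIM protein of the actin cytoskeleton, at 1.20. Lowest were the smooth muscle myosin heavy chain Myh11 at -1.57 and smoothelin (Smtn) at -1.57, and Smtn went from 1629.6 units untreated to 804, 729.9 and 585 units. Mylk and Synpo2 were under the filter. Myh11 and Smtn mark differentiated smooth muscle, as does Cnn1, whose log2 ratios on this scale were 1.38 at 1.5 hr and 0.63 at 24 hr. Des and Lmod1, the other smooth muscle markers in this list, stood at -0.98 and -0.44 at 24 hr.

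Among 10 genes of actin-linked adhesions and crosslinks, 1 was higher and 1 lower at 1.5 hr, and 2 were higher and 1 lower at 24 hr, close to the shares of all genes. The higher ones at 24 hr were the alpha-actinins Actn1 and Actn4, which bundle actin filaments, with log2 ratios of 1.85 and 1.83, and the lowest were Tln1 (talin 1, which links integrins to actin) at -1.39 and Zyx (zyxin) at -0.59.

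Of the other muscle actins, Acta1 (skeletal alpha-actin) had 2118 units untreated and 6688, 1354 and 4134 units after 1.5, 6 and 24 hr, with log2 ratios of 1.23, 0.09 and 0.87 relative to the median gene. Of the 31-base stretches of Acta1, 4.03% are shared with the 4 actins of the set. Actc1 (cardiac alpha-actin) was under the filter, at 22.6 units untreated. In the list of SRF and its cofactors, none of the 5 genes above the filter was higher at 1.5 hr (16.3% of all genes) or 24 hr (14.7%). At both times 1 was lower (17.6% and 15.7%). Srf stood at a log2 ratio of 0.56 and Fhl2 at 0.40 at 24 hr, Elk1 at -0.16 and the actin-sensing coactivator Mkl1 at -1.06. Mkl2 and the muscle coactivator Myocd were under the filter. As deposited, where 29.8% of all genes were 2-fold higher and 8.51% lower at 1.5 hr, the counts leaned further to the higher side as all genes did, with 6 higher and 1 lower of the smooth muscle genes, 10 and 0 of the actin regulators, 4 and 0 of the adhesion genes, and 1 and 0 of the SRF list. At 6 hr relative to the median gene, 2 of the smooth muscle genes and 1 of the actin regulators were 2-fold higher (7.47% of all genes). No gene above the filter in these 4 lists was 2-fold lower at 6 hr (3.52%). Mylk, under the filter, stood at -1.27.

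**Figure D4:**
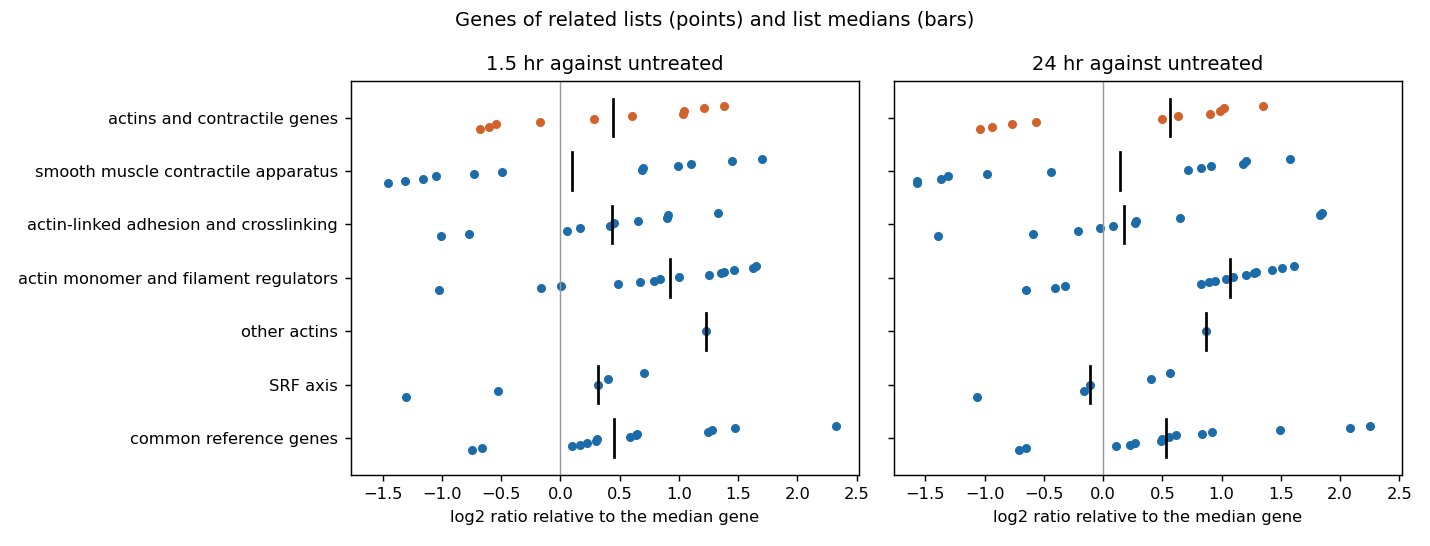
Log2 ratio to untreated relative to the median gene at 1.5 and 24 hr, with each point a gene and each bar the median of its list. The actin regulators had a median of 0.92 and 1.07, the 10 actins and contractile genes 0.44 and 0.57, and the smooth muscle list, at 0.09 and 0.14, spread to both sides of 0.

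Markers of the cells that a MEF culture could hold were read in the same libraries. Fibroblast markers ranged widely in the untreated library, from Col1a1 (type I collagen) at 44002 units to Lum at 73.9 units. Dcn and Pdgfra were at 229 and 112 units, and Pdgfra was under the filter. The sum over the 10 fibroblast markers was 90923, 89870.3, 43327 and 55164 units at 0, 1.5, 6 and 24 hr. Col1a1 had 12173 units at 24 hr and made up most of the difference from untreated, while Vim (vimentin) had 5166 units untreated and 14539 at 24 hr. On the scale of the median gene 2 of the 9 fibroblast markers above the filter were 2-fold higher at 24 hr (14.7% of all genes) and 3 lower (15.7%). Smooth muscle markers, of which Cnn1 is also a gene of this set, summed to 3171, 4012, 1467 and 2265 units, led in the untreated library by Smtn. The higher sum at 1.5 hr was that of Cnn1, and the other 4 markers had log2 ratios below 0 at each time. Pericyte markers summed to between 126 and 333 units, led by Cspg4 at 322 units untreated. Of the striated muscle markers, 1 of 7 passed the filter, Acta1, and Myod1 was listed at 0 in all 4 libraries. None of the 4 endothelial markers passed the filter, and their sum was at most 5.04 units, led by Kdr at 2.93 units untreated. None of the 4 epithelial markers passed it, with a sum of at most 49.1 units, led by Krt18 at 41.1 units untreated, and Epcam was listed at 0 in all 4 libraries.

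Macrophage markers did not move as a group. Their sum was 3259 units untreated and 16397, 3185 and 8053 units after 1.5, 6 and 24 hr, led by Lyz2 (lysozyme) at 2257, 14668, 2692 and 7187 units, which made up most of it. Cd14 had 62.6 units untreated and 516, 178 and 387 units after 1.5, 6 and 24 hr, whereas Cd68 had 605, 823, 202 and 312 units in the 4 libraries. On the scale of the median gene 2 of the 4 above the filter were 2-fold higher at 1.5 hr (16.3% of all genes) and none lower (17.6%). At 24 hr 2 were higher (14.7%) and 2 lower (15.7%). The pan-leukocyte marker Ptprc, at 13.4, 30.8, 8.63 and 16.6 units, and the macrophage marker Emr1, at 26.3, 74.0, 13.7 and 27.3 units, were under the filter. Csf1r was at 295, 287, 90.1 and 124 units, 4 of the 6 markers passed the filter, and none was at 0. Their part in the values of the actins and contractile genes was not tested.

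H3K4me3 marks the starts of active and poised genes. The deposited list held 11157 peaks with a median length of 3187 bp and a median of 1049 tags, and no fold enrichment under 20. A peak lay within 1 kb of the annotated start for 7 of the 10 genes, and for 92.3% of the 5952 genes above the filter that could be placed on mm9. The exceptions were Actg2, Cnn1 and Myl9, whose nearest peaks were 28292, 11840 and 47805 bp away. Among the placed genes with an untreated level at least that of Cnn1, 81 of 1220 had no peak, a background chosen after the data were seen. Myl9 had the 57th highest RNA level of all genes in the untreated library. Of the 45 placed genes at its level or above, 4 had no peak, Myl9, Spp1, Gm5506 and Gm9846. These names were looked up after the values were seen. An absent peak says only that none was in the list.

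The peaks of the other 7 genes were long, each longer than at least 91.1% of all peaks. Their lengths were not compared with those of peaks at genes of a similar RNA level. The peak of Tpm1 (mm9 chr9:66885887-66899041) was 13155 bp long with 5466 tags and a fold enrichment of 91.6, longer than 99.8% of all peaks. The peak of Cnn2 (mm9 chr10:79444758-79455643) was 10886 bp long with 4078 tags, and its window also holds the start of ORF61. Actb had 7432 bp and 3023 tags, Tpm2 6773 bp and 1722 tags, Tagln 6582 bp and 1538 tags, Acta2 6412 bp and 1831 tags, and Actg1 5631 bp and 2377 tags. Fold enrichment ran from 26.4 in Tagln to 91.6 in Tpm1, and 4 of the 10 genes had a peak of at least 40, Acta2, Actg1, Cnn2 and Tpm1, against 64.5% of genes. The mark was measured in untreated cells, so it says nothing of the treated ones. Of the 4 genes with a CArG match printed above, Acta2, Actg1 and Cnn2 had a peak and Myl9 had none.

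**Figure D5:**
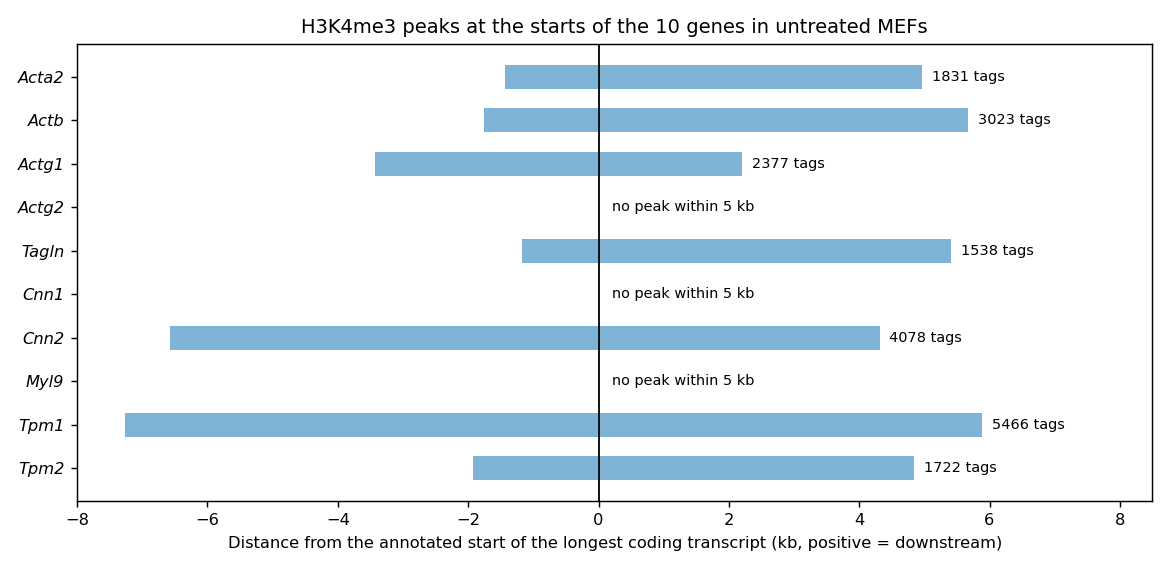
H3K4me3 peaks at the 10 genes in untreated MEFs, drawn as bars from their first to their last base in kb from the annotated start of the longest coding transcript, positive downstream. The 7 peaks spanned the start, from 5631 bp at Actg1 to 13155 bp at Tpm1, and Actg2, Cnn1 and Myl9 had none within 5 kb.

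The genes most like Acta2 over the 3 log2 ratios to untreated, by Euclidean distance among 6251 genes, were Gng2 (0.06), Cbr1 (0.07), Peci (0.07), Ss18 (0.07) and Rpl6 (0.09). Of the set itself, Cnn2 at 0.73 (1295th) and Cnn1 at 0.79 (1494th) were nearest to Acta2. Many genes outside the set thus lay nearer to Acta2 than any gene within it. The genes most like Actb were Uspl1 (0.07), 2010111I01Rik (0.13), Supt6h (0.13), Tmed3 (0.13) and Nelf (0.14). Tpm2 at 0.33 (94th) and Actg2 at 0.40 (183rd) were nearer to Actb than Acta2, at 2.01, or Actg1, at 2.92. These distances rest on 3 ratios that share the untreated library.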

How the data were processed

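For RNA, the authors used TopHat on mm9, and a script of theirs gave RPKM for RefSeq transcripts. The deposited RPKM are on a scale of their own, with length-weighted sums above those of a usual RPKM, and libraries sum to different totals. Columns were tied to times through the library names in the supplement of the paper, which the labels alone do not give. The meaning of R1 and R2 is not given in the sources used here, and they were averaged. One field of the label of the 24 hr RNA sample carries ChIP text. Its title, treatment and source are those of RNA-seq. For ChIP, the authors used Bowtie and then MACS. Each peak of the deposited list has a tag count, a score made from the p of the caller, a fold enrichment (a ratio), an FDR in percent and an average tag signal. The counts, lengths and fold enrichments were used.

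Levels of a gene were the mean of R1 and R2 with no pseudocount. Genes with a mean of at least 100 units over the 4 libraries were the background. No test was made, since each time had 1 library, and a change was 2-fold or more. Scaling to the median gene used the median of the log2 ratios of these genes, and GC content, found for 95.3% of them, was centred within 20 bins. Starts, 31-base stretches and GC content came from mm9 with GENCODE, and promoters from RefSeq (GRCm38.p6). The genes and lists were chosen with earlier results of these data known. Named were the 10 genes, the 2 highest and the 2 lowest of each related list at 24 hr relative to the median gene, the highest of each marker list, Nfkbia and Ccl2, and the 5 genes nearest to Acta2 and to Actb. The result of 1 related list is not reported here. Other genes named were chosen after their values were seen. The steps were tested on simulated data. Python 3.11.15, numpy 2.4.6, pandas 2.3.3 and matplotlib 3.10.9 were used.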

Additional observations from a re-analysis of the deposited data

Results flagged for a closer look

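Acta2 and Cnn1 were each at least 2-fold higher than untreated at 1.5 hr and at least 2-fold lower at 6 hr as deposited, which is why they are listed here. The log2 ratio at 1.5 hr exceeded that at 6 hr by 2.13 for Acta2 and by 2.93 for Cnn1. No test of this difference was possible with 1 library per time, so it was not tested, and both ratios share the untreated library. Relative to the median gene the 6 hr ratios were -0.36 for Acta2 and -0.39 for Cnn1, so neither passed 2-fold below untreated on that scale.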

How the results depend on the processing

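The values were recomputed under other scalings, a pseudocount of 100, each column alone, other thresholds and filters, and the sum of all rows of a gene. The number of genes at least 2-fold higher at 1.5 hr, 5 as deposited (29.8% of all genes), was 3 after GC centring and 2 at a 3-fold threshold. The number at least 2-fold lower at 6 hr, 4 as deposited (31.4%), was 0 after the median of ratios (3.52%), 0 after scaling to the sum and 0 after GC centring. It was 8 at 1.5-fold and 0 at 3-fold. The median gene itself stood at a log2 ratio of -0.74 at 6 hr as deposited, so most genes were also at least 1.5-fold lower. The number higher at 24 hr, 3 as deposited (17%), was 6 at 1.5-fold and 0 at 3-fold. The number lower at 24 hr, 0 as deposited (13.4%), was 1 after the median of ratios (15.7%), 1 after GC centring, 1 from R1 alone and 3 at 1.5-fold. The number changed at any time, 8 as deposited (68.7%), was 5 after the median of ratios (41.6%), 5 after scaling to the sum, 5 after GC centring and 2 at 3-fold. Shares of all genes at the other settings are not given here. The median log2 ratio of the 10 genes after the median of ratios, scaling to the sum and GC centring was 0.44, 0.63 and 0.35 at 1.5 hr, -0.15, -0.022 and -0.008 at 6 hr, and 0.57, 0.73 and 0.28 at 24 hr. With the pseudocount it was -0.86 at 6 hr and 0.62 at 24 hr. Genes with a peak of at least 40-fold enrichment numbered 4 (64.5% of genes), against 7 with any peak (92.3%). The cause of these differences was not tested, apart from the thresholds.

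Over 8 settings, the sign of the log2 ratio at 24 hr was kept in 8 of 8 for all 10 genes. At 1.5 hr it was kept for all but Myl9 (7 of 8). At 6 hr it was kept in 4 to 7 of 8 for Actg1, Tagln, Cnn2, Tpm1 and Tpm2. The 8 settings include the values as deposited and a pseudocount, which cannot turn a sign. They also include the sum of all rows, which is unchanged for a gene with 1 row. After GC centring the kept signs of Acta2 and Myl9 at 24 hr rested on log2 ratios of 0.002 and -0.018. Of the summary values, 73 recomputed values stayed the same and 29 moved, and of the values of single genes and gene pairs 197 stayed and 119 moved, most of them under another scaling. No paired analysis was possible because each group had 1 library. The paper states a range of mapped sequences per sample, but the table holds no reads per gene. The precision that depth gives to single values was therefore not estimated.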
